A study of Mus musculus with 6 samples.

Results

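Imprinted genes are genes that mammals read mainly from the chromosome of one parent. The 38 described here are known imprinted mouse genes, matched by gene symbol, and all 38 had a row among the 23284 genes in the files. Of these, 34 had at least 1 read and 19 had enough reads to be tested. They were compared in liver RNA of mice aged 8 weeks, of the C57BL6/J strain, between 3 wild type libraries (WT1 to WT3) and 3 libraries labelled Trim24 -/- (KO1 to KO3). Trim24 codes for a nuclear receptor cofactor of the TIF1 family. The labels give no sex, no treatment and no description of the deleted allele, and they do not say whether each library came from its own mouse. The p-values therefore measure the spread between these libraries, which may be technical. Values per library are given in the order 1, 2, 3.

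Most imprinted genes sit in clusters, where a stretch of DNA methylated on one parental copy, the imprinting control region, sets which genes of the cluster are read from which copy. Many of them act on growth before birth, and several, such as H19, Igf2 and Dlk1, are read strongly in fetal liver and are largely silenced after birth. The counts do not separate the parental copies, so they measure how much RNA a locus made and not which copy made it.

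Reads in genes came to 1495583 to 2872421 per library, and 93.3% to 95.8% of all counted reads lay in no gene. Levels are given in CPM, the counts scaled to a library of the same size with TMM factors over the tested genes. A gene with 0 counts could lie as high as 3 counts, or 1.04 to 2.10 CPM by library, from counting error only. Trim24 itself had 31, 45 and 44 counts in wild type and 3, 2 and 2 in the knockout. All 15 listed hepatocyte markers had reads, and their sum was 141319 to 150722 CPM in wild type and 96471 to 131854 CPM in the knockout, lowest in KO2. The sum of 25 pancreatic acinar genes was 1247 CPM for KO1 and 789 CPM for KO3, against 15.2 CPM for KO2 and 12.5 to 41.9 CPM in wild type. Results for Meg3, Rian, Rtl1, Impact and Cela1, and the member count and median, are therefore also given with KO2 as the only knockout library.

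Meg3, Rian and Rtl1, neighbours in the Meg3-Dlk1 cluster on chromosome 12, rose in the knockout, by 9.48-fold, 7.14-fold and 7.37-fold. No other tested member passed the threshold in either direction. The cluster lies in a domain where Meg3, Rian and Mirg are noncoding RNAs of the maternal copy, and Dlk1 and Rtl1 are read from the paternal copy. Rtl1 runs on the minus strand, and Meg3, Rian, Mirg and Dlk1 run on the plus strand. Meg3 is a long noncoding RNA, Rian carries small nucleolar RNAs and microRNAs in its introns, and Rtl1 codes for a protein derived from a retrotransposon that the placenta needs.

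The sequences below belong to these loci and come from RefSeq on GRCm38.p6. The promoter windows, from 250 bases before to 50 bases after a start, are shown because Meg3 and Rian changed together. Capitals mark the letters TGCCGC on either strand, the core motif bound by ZFP57, a zinc finger protein that keeps imprints. The Meg3 window lies at chr12:109540746-109541045 and the Rian window at chr12:109603695-109603994, both on the plus strand.
Meg3: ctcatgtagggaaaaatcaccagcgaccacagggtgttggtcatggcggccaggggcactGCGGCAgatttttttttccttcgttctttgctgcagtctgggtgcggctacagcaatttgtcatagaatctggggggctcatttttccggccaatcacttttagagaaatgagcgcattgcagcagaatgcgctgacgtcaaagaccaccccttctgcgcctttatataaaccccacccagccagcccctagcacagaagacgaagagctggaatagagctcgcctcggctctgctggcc
Rian: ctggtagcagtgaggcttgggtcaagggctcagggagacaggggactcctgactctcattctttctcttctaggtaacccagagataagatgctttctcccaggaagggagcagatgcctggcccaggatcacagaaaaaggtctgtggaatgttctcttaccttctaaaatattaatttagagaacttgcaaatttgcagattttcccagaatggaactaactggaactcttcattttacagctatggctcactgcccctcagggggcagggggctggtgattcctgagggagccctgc

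The Meg3 window held 1 match (GCGGCA, the motif on the other strand) and 13 CpG dinucleotides, and the Rian window held no match and 0 CpG. A second annotated start of Meg3 had no match and 1 CpG. Across members the motif stood in 12 of 48 windows (25.0%, 32 genes matched by symbol), among them windows of Igf2, Grb10, Mest, Plagl1, Nnat, Nap1l5 and Zim1. Over all 32851 windows of the same length the share was 11.6%. The motif holds a CpG, and the windows also differed in base composition, with a median of 13 CpG and 56.7% GC for members and 7 CpG and 52.7% GC for all. A match is a description of letters and not a binding site. Rtl1, H19, Cdkn1c, Peg10, Sgce and Impact have no entry.

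MicroRNAs are a second product of these loci. Exons of Rtl1 overlap 6 microRNA hairpins on the opposite strand, between positions 109590447 and 109595388 of chromosome 12, which come from an RNA of the maternal copy that runs against Rtl1. One more, miR-3071, lies there on the strand of Rtl1. Meg3 carries the miR-770 hairpin in an exon, and the miR-341, miR-1188 and miR-370 hairpins lie in introns of Rian. One mature form of each of the 6 opposite hairpins, 1 from Meg3 and 1 from Rian are shown to let a reader see how different their seeds are, with the seed (bases 2 to 8) in capitals. All 8 lie on the plus strand.
miR-431-5p: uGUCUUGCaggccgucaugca
miR-433-3p: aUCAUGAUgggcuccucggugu
miR-127-3p: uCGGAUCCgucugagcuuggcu
miR-434-3p: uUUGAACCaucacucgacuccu
miR-432: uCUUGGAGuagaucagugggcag
miR-136-5p: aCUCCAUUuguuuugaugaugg
miR-770-5p: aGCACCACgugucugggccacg
miR-370-3p: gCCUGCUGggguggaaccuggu

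The 23 mature forms found in the sequence source for the Meg3, Rian, Rtl1 and H19 loci had 23 different seeds, so none shared a seed with another. Their 12 hairpins have rows in the files, and all 12 were at 0 in every library. The gene annotation also places Mir1906-1 over exons of Meg3 on the same strand, and it is not among these. Of the 611 microRNA symbols in the files, 7 had any read. The mature microRNAs were thus not measured here, and the changes below concern the long transcripts only.

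Meg3 had 3, 3 and 2 counts in wild type and 23, 19 and 71 in the knockout. In CPM this was 2.10, 1.98 and 1.19 against 14.2, 10.3 and 24.7. Every knockout library lay above every wild type library, and KO3 stood highest. The means were 1.76 ± 0.50 and 16.4 ± 7.4 CPM (SD, n = 3 each), so the log2 fold change was 3.24 with an SE of 0.49 (edgeR quasi-likelihood test, adjusted p = 0.0016).

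Rian had 3, 4 and 1 counts in wild type and 16, 15 and 54 in the knockout. Its levels were 2.10, 2.65 and 0.594 CPM in wild type and 9.91, 8.14 and 18.8 CPM in the knockout. The groups again did not overlap, and the order of the knockout libraries was that of Meg3. The means were 1.78 ± 1.06 and 12.3 ± 5.7 CPM (SD, n = 3 each), so the log2 fold change was 2.84 with an SE of 0.53 (edgeR adjusted p = 0.0070).

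Rtl1 had 0, 4 and 1 counts in wild type and 14, 11 and 29 in the knockout, or 0, 2.65 and 0.594 CPM against 8.67, 5.97 and 10.1 CPM. Here too the groups did not overlap, and WT1 had no read. The means were 1.08 ± 1.39 and 8.24 ± 2.09 CPM (SD, n = 3 each), so the log2 fold change was 2.88 with an SE of 0.62 (edgeR adjusted p = 0.016). The sources used here do not state whether the counting used strand, so reads of Rtl1 and of the opposite RNA cannot be told apart, and Meg3 likewise overlaps an unnamed gene, Gm26906, on the other strand.

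The other members of the cluster were almost without reads. Dlk1, which codes for a membrane protein that restrains differentiation, had 1 count in WT1 and 0 in each other library. Mirg, a host of many microRNAs downstream of Rian, was at 0 in all 6 libraries. So were Begain and Dio3, imprinted genes at the edges of the same domain. Of other genes within 1 Mb of Meg3, matched by symbol, 4 passed the filter on low counts (Yy1, Slc25a47, Wars and Ppp2r5c), and none was called, with log2 fold changes from -1.12 to 0.39 (smallest edgeR adjusted p = 0.076).

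**Figure D1:**
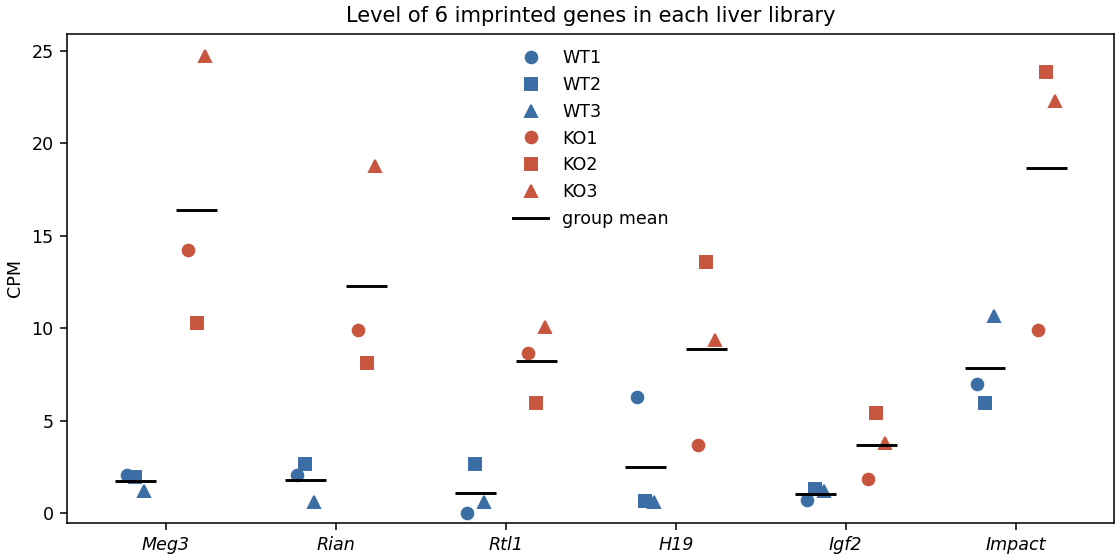
Level in CPM (vertical axis) of 6 imprinted genes in each wild type (blue) and knockout (red) library, with the group mean as a black line (circle, square and triangle for replicates 1, 2 and 3). Meg3, Rian and Rtl1 are below 3 CPM in each wild type library and above 5 CPM in each knockout library, while for H19 and Impact the groups overlap.

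As background, 3.08% of all 9180 tested genes were called higher and 2.65% lower. Of the 19 tested members 3 were called higher and 0 lower, and all 3 lie in 1 cluster. At an unadjusted edgeR p under 0.05, 6 were higher (with H19, Kcnq1ot1 and Impact) and 0 lower, where 10.3% of all tested genes were higher and 9.97% lower. DESeq2 and limma-voom also called 3 higher and 0 lower. Of the 19 members not tested, 4 were at 0 in all libraries (Mirg, Magel2, Snrpn and Ascl2), and the other 15 had at most 13 counts in any library. These 3 passed the filter through the knockout group alone, since no wild type library reached the 5.99 CPM that it asked for, so a member counted among the tested for this reason had to differ. The groups did not overlap with the knockout above for 4 tested members (12.4% of all tested genes) and with the knockout below for 1 (12.6%).

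Over 18 other settings the log2 fold change ran from 2.52 to 3.49 for Meg3, from 2.18 to 3.24 for Rian and from 2.36 to 4.44 for Rtl1, which were called in 17, 16 and 13 of them. Meg3 was called whichever library was left out (edgeR adjusted p up to 0.016). The call of Rian was lost without WT3 (edgeR adjusted p = 0.051), and that of Rtl1 without WT1, WT3 or KO3 (edgeR adjusted p = 0.073, 0.10 and 0.066). The value of 4.44 for Rtl1 came without WT2, the wild type library with most of its reads.

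With KO2, whose acinar sum was in the wild type range, as the only knockout library, the log2 fold changes were 2.52 for Meg3 (SE 0.70, edgeR adjusted p = 0.053), 2.18 for Rian (SE 0.81, edgeR adjusted p = 0.14) and 2.38 for Rtl1 (SE 1.06, edgeR adjusted p = 0.23), and none of the 3 was called. That fit assumes that a single knockout library varies like the wild type ones. Of 18 pancreatic islet genes 11, among them Ins1, Ins2 and Gcg, were at 0 in every library, and 7 had reads. Iapp, 1 of the 7, had 2 reads, both in KO3. The part of pancreatic RNA in the rise of Meg3, Rian and Rtl1 was not tested.

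**Figure D2:**
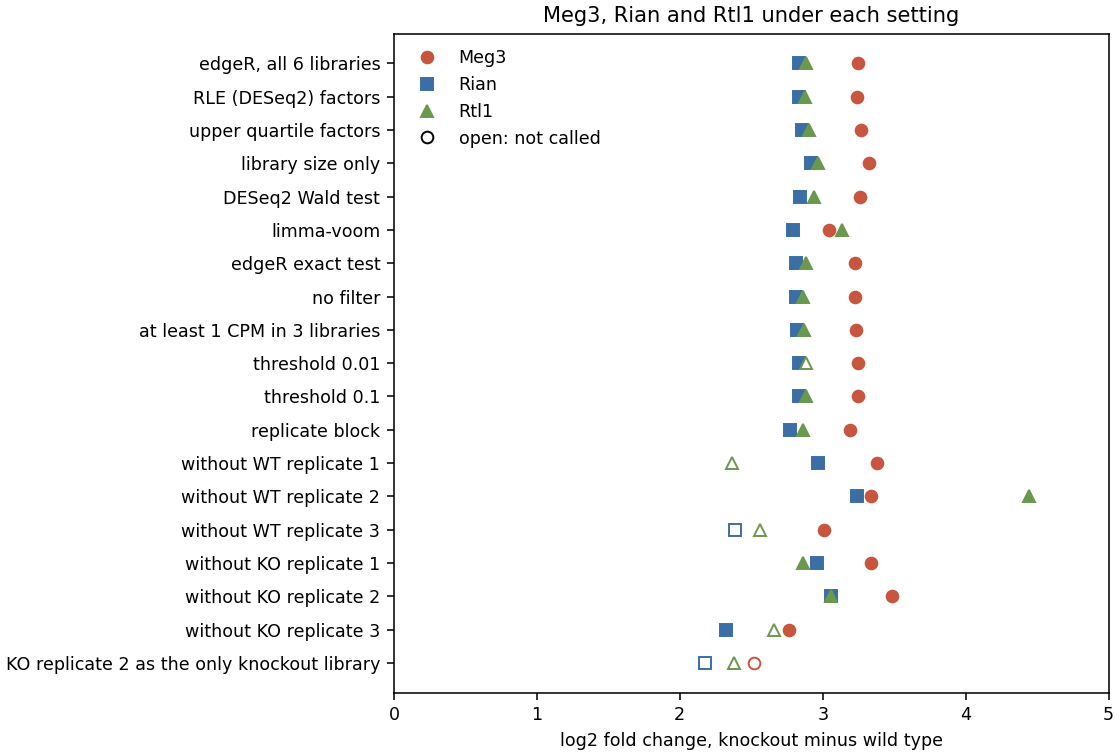
Log2 fold change of Meg3, Rian and Rtl1 (horizontal axis, knockout minus wild type) under each setting (rows), with filled markers where the gene was called and open markers where it was not. All points lie above 2, and the open points are those of Rtl1 at the threshold of 0.01 and without WT1, WT3 or KO3, of Rian without WT3, and of all 3 genes with KO2 alone.

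The marker sums of some other cell types did not overlap between the groups either. The 19 stellate cell and fibroblast genes summed to 591 to 641 CPM in wild type and 751 to 932 CPM in the knockout, where 2 of 13 tested were called higher (Col1a2 and Dcn) and none lower. The 16 Kupffer cell and macrophage genes summed to 270 to 494 CPM and 431 to 789 CPM, with overlap, and 3 of 14 were called higher (C1qc, Mpeg1 and Ctss) and none lower. The 18 endothelial genes summed to 665 to 723 CPM and 545 to 682 CPM, also with overlap, and Tek was called higher and Stab2 and Ehd3 lower of 17 tested. For all tested genes the shares were 3.08% higher and 2.65% lower. No gene of these 3 lists was at 0 in all libraries. With single libraries left out Tek stayed called, while each other gene named from these lists lost its call at least once. Their largest edgeR adjusted p in those fits was 0.068 (Stab2) to 0.11 (Mpeg1). The 13 neuron and glia genes, with Snap25, Tubb3, Uchl1 and Nefm at 0, summed to 31.5 to 42.3 CPM in wild type and to at most 25.4 CPM in the knockout. Most of this sum was Syt1 in every library. Wild type libraries held 37.7, 34.4 and 27.3 CPM of Syt1, while knockout libraries held 24.8, 14.7 and 17.0 CPM. Syt1 was the only tested gene of this list and was not called (edgeR adjusted p = 0.065). Both Meg3 and the stellate sum were higher in every knockout library than in every wild type library. KO3 had the highest Meg3 and KO2 the highest stellate sum. In whole liver, more cells of a type and more RNA per cell cannot be told apart, and the part of these cells in the rise of Meg3, Rian and Rtl1 was not tested.

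H19 and Igf2, the pair of the cluster on distal chromosome 7, had higher means in the knockout without passing the threshold. H19 is a maternal noncoding RNA of fetal tissue, and Igf2 is the paternal gene for insulin-like growth factor 2. H19 had 9, 1 and 1 counts in wild type and 6, 25 and 27 in the knockout, or 6.29, 0.661 and 0.594 CPM against 3.72, 13.6 and 9.39 CPM. WT1 lay above KO1, so the groups overlapped. The log2 fold change was 1.89 (SE 0.67, edgeR adjusted p = 0.12).

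Which library was present decided the call of H19. Without WT1 its log2 fold change was 3.72 (edgeR adjusted p = 0.037) and without KO1 it was 2.20 (edgeR adjusted p = 0.048), and it was also called with no filter on low counts (edgeR adjusted p = 0.0043). It was lowest without WT3, at 1.38 (edgeR adjusted p = 0.37), and without KO2 or without KO3 it did not pass the filter. Igf2 had 1, 2 and 2 counts in wild type and 3, 10 and 11 in the knockout, with no overlap in CPM, and was too low to be tested. In the fit without a filter its log2 fold change was 1.72 (SE 0.76, edgeR adjusted p = 0.20).

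Of 8 tested genes of a list on silencing after birth, Afp alone was called, and it was higher. The share called higher over all tested genes was 3.08%. Afp codes for alpha-fetoprotein, which fetal liver makes as it makes H19. It had 2.10, 3.97 and 2.38 CPM in wild type and 13.6, 25.0 and 51.1 CPM in the knockout. The log2 fold change was 3.44 with an SE of 0.53 (edgeR adjusted p = 0.0018). Like Meg3, Rian and Rtl1, Afp stayed under the 5.99 CPM of the filter in each wild type library. It was thus tested through the knockout group alone and had to differ. KO1 was the lowest knockout library for both Afp and H19, but its H19 level was within the wild type range and its Afp level was above it.

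The cation-independent mannose 6-phosphate receptor gene Igf2r, whose protein takes up IGF2 for breakdown, had 154 counts or more in each wild type library and did not pass the threshold. Its levels were 106 ± 4 and 110 ± 16 CPM (SD, n = 3 each), so the log2 fold change was 0.06 with an SE of 0.16 (edgeR adjusted p = 0.89). Slc22a3, a transporter of organic cations in the same cluster on chromosome 17, had 10.2 ± 1.2 and 10.4 ± 2.7 CPM. It shares exon sequence with Plg on the opposite strand, an abundant liver gene at 1799 ± 126 and 1534 ± 59 CPM. Slc22a2 had a single read, in KO3. Airn, the paternal noncoding RNA that silences this cluster, had 1 count in wild type and 6 in the knockout.

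In the wider IGF pathway 2 of 18 tested genes were called lower and none higher, against 2.65% and 3.08% of all tested genes. Its fitted changes were positive for 7 genes and negative for 11, with a median of -0.06 on the log2 scale. Stat5b, a transcription factor that carries the growth hormone signal, fell by 0.77 on the log2 scale, from 57.7 ± 6.3 to 33.9 ± 3.9 CPM (SE 0.18, edgeR adjusted p = 0.022). The insulin receptor gene Insr fell by 0.65, from 201 ± 35 to 128 ± 19 CPM (SE 0.17, edgeR adjusted p = 0.045). Neither was called without WT1, WT2, WT3, KO2 or KO3 (edgeR adjusted p up to 0.10 and 0.18). Grb10, an imprinted adaptor that dampens the receptors for insulin and IGF1, had 9.08 ± 1.64 and 13.3 ± 5.1 CPM, with KO1 inside the wild type range (log2 fold change 0.59, SE 0.34, edgeR adjusted p = 0.36).

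**Figure D3:**
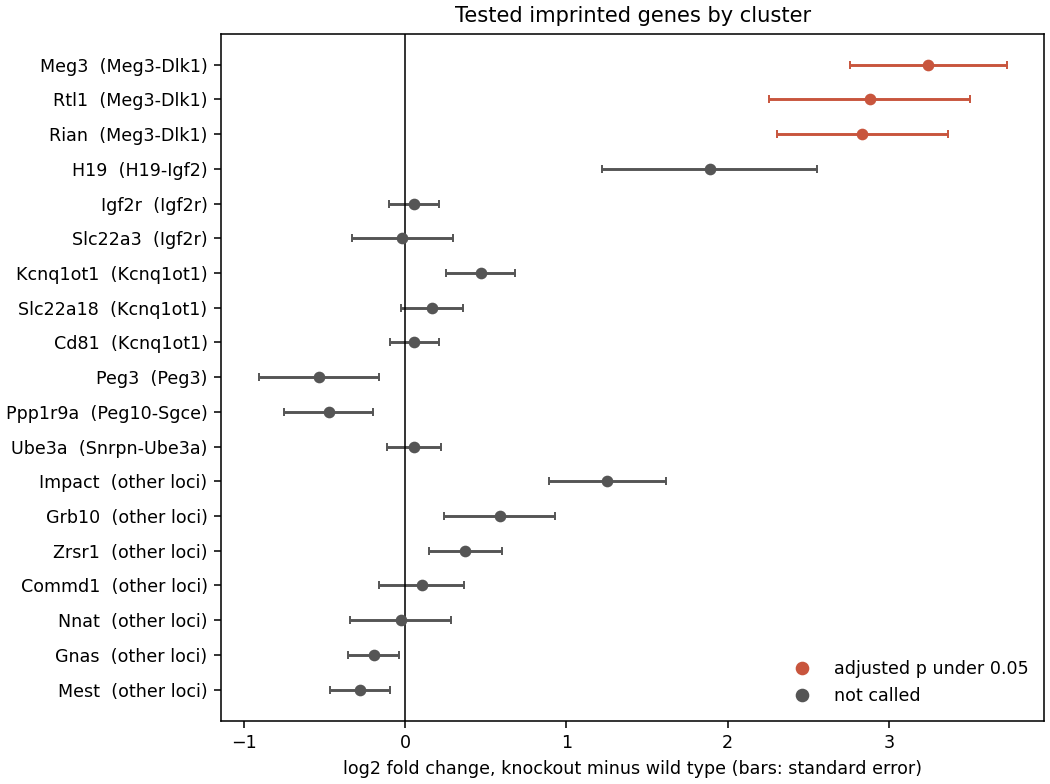
Log2 fold change (horizontal axis, knockout minus wild type, bars are standard errors) of the 19 tested imprinted genes, grouped by cluster, with called genes in red. The 3 red points between 2.84 and 3.24 belong to the Meg3-Dlk1 cluster, and 14 of the other 16 genes lie within 1 of zero.

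The Kcnq1ot1 cluster, next to H19 and Igf2 on chromosome 7, held 3 tested genes of 7 and no call. Kcnq1ot1, the paternal noncoding RNA that silences the cluster, had 191, 228 and 146 CPM in wild type and 254, 335 and 194 CPM in the knockout. KO3 lay inside the wild type range (log2 fold change 0.47, SE 0.21, edgeR adjusted p = 0.24). Kcnq1, the gene it runs against, had 9 counts in wild type and 11 in the knockout. The transporter gene Slc22a18 had 40.5 ± 7.9 and 45.5 ± 5.2 CPM, and Cd81, a tetraspanin of the cell surface, 95.3 ± 9.4 and 99.2 ± 7.4 CPM.

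Its other 4 genes were too low to test. Cdkn1c, an inhibitor of cyclin-dependent kinases that limits growth, had 1, 2 and 4 counts in wild type and 3, 11 and 5 in the knockout. Tssc4 had 13 and 22 counts in the 2 groups, and Phlda2, which restrains placental growth, had 1 read, in KO2. Ascl2, a transcription factor of placenta and intestinal stem cells, was at 0 throughout.

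In the Peg3 cluster on proximal chromosome 7, Peg3, a zinc finger gene of the paternal copy, had 9.08, 13.2 and 7.72 CPM in wild type and 4.95, 10.3 and 5.57 CPM in the knockout. The groups overlapped through KO2 (log2 fold change -0.53, SE 0.37, edgeR adjusted p = 0.47). Zim1 had 1 read and Usp29 had 2 reads over all libraries.

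Chromosome 6 carries 6 members as well as Trim24, at distances of 7.12 Mb (Mest) to 33.1 Mb (Sgce and Peg10) on GRCm38, and none was called. Mest, a paternal gene of the hydrolase fold family, had 49.6, 41.7 and 44.5 CPM in wild type and 40.3, 41.2 and 31.3 CPM in the knockout. The groups did not overlap, though WT2 and KO2 lay close together (log2 fold change -0.28, SE 0.19, edgeR adjusted p = 0.44). Copg2, which overlaps its end on the opposite strand, had 43.5 ± 2.3 and 36.7 ± 7.0 CPM.

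Ppp1r9a, which codes for neurabin, a partner of protein phosphatase 1, had 45.4, 51.6 and 42.2 CPM in wild type and 52.6, 28.8 and 21.6 CPM in the knockout. KO1 was the highest of all 6 libraries, and the log2 fold change was -0.47 (SE 0.27, edgeR adjusted p = 0.36). Without KO1 it was -0.90 and called (edgeR adjusted p = 0.025). Peg10, derived from a retrotransposon like Rtl1, had 5 counts in wild type and 9 in the knockout, Sgce, the gene of epsilon-sarcoglycan, had 8 and 18, and Asb4 had 1 and 6, a ratio of 4.39 with an exact 95% counting interval of 0.53 to 202. Nap1l5 had 4, 3 and 2 counts against 1, 1 and 3, with every knockout library below every wild type library in CPM (log2 fold change -1.28 without a filter, SE 0.98, edgeR adjusted p = 0.60).

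In the cluster lost in Prader-Willi and Angelman syndromes, Ube3a, the gene of a ubiquitin ligase, was the only tested member, at 120 ± 2 and 125 ± 26 CPM (log2 fold change 0.06, SE 0.17). Its imprint is known from neurons, and most other tissues read both copies. Ndn had 1 and 2 counts and Peg12 0 and 3 in wild type and knockout, and Magel2 was at 0. Snrpn was listed at 0 in all libraries, as was Snurf, with which it shares exons on the same strand.

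Of the members at other loci, Impact came closest to the threshold. It codes for an inhibitor of the kinase GCN2, which senses a lack of amino acids. It had 6.99, 5.95 and 10.7 CPM in wild type and 9.91, 23.9 and 22.3 CPM in the knockout. KO1 lay below WT3, and the log2 fold change was 1.25 (SE 0.36, edgeR adjusted p = 0.061).

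Impact was called in 7 of 18 other settings, among them without KO1 (edgeR adjusted p = 0.0087), with KO2 alone (0.026) and with the edgeR exact test (0.024). With DESeq2 and limma-voom it was not called (adjusted p = 0.076 and 0.12). None of 6 tested genes within 1 Mb of it was called.

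Zrsr1, a splicing factor gene of the paternal copy, lies inside an intron of Commd1 and runs against it. Its levels were 19.6, 15.2 and 20.8 CPM in wild type and 22.3, 26.6 and 23.3 CPM in the knockout. The groups did not overlap, and the log2 fold change was 0.37 (SE 0.23, edgeR adjusted p = 0.38). Commd1, which acts in copper handling, had 13.3 ± 2.0 and 14.2 ± 2.0 CPM. The annotation gives the pair shared exon sequence on opposite strands.

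Gnas, the gene of the stimulatory G protein alpha subunit, had 199 ± 32 and 174 ± 10 CPM (log2 fold change -0.19, SE 0.16, edgeR adjusted p = 0.54). Nnat, a small membrane protein of brain and islets, had 11.2 ± 3.6 and 11.0 ± 1.5 CPM. Plagl1, a zinc finger gene that limits growth, had 2, 1 and 1 counts in wild type and 2, 7 and 2 in the knockout, and was not tested.

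Members were also split by the parental copy listed for each gene, which was not measured in these livers. Ube3a, listed as maternal, is read from both copies in most tissues other than neurons. Of the 20 members listed as maternal 12 were tested, with 2 higher (Meg3 and Rian) and a median log2 fold change of 0.08. Of the 18 paternal ones 7 were tested, with 1 higher (Rtl1, whose reads cannot be told apart from those of the opposite maternal RNA) and a median of 0.37. The median over all 19 was 0.10, and over all 9180 tested genes it was 0.01. Of the 19 genes 13 had a positive fitted change and 6 a negative one, against 4666 and 4514 of all tested genes. These counts and medians include Meg3, Rian and Rtl1, whose direction was set by passing the filter through the knockout alone. Among the 16 other tested members 10 changes were positive and 6 negative, with a median of 0.06.

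**Figure D4:**
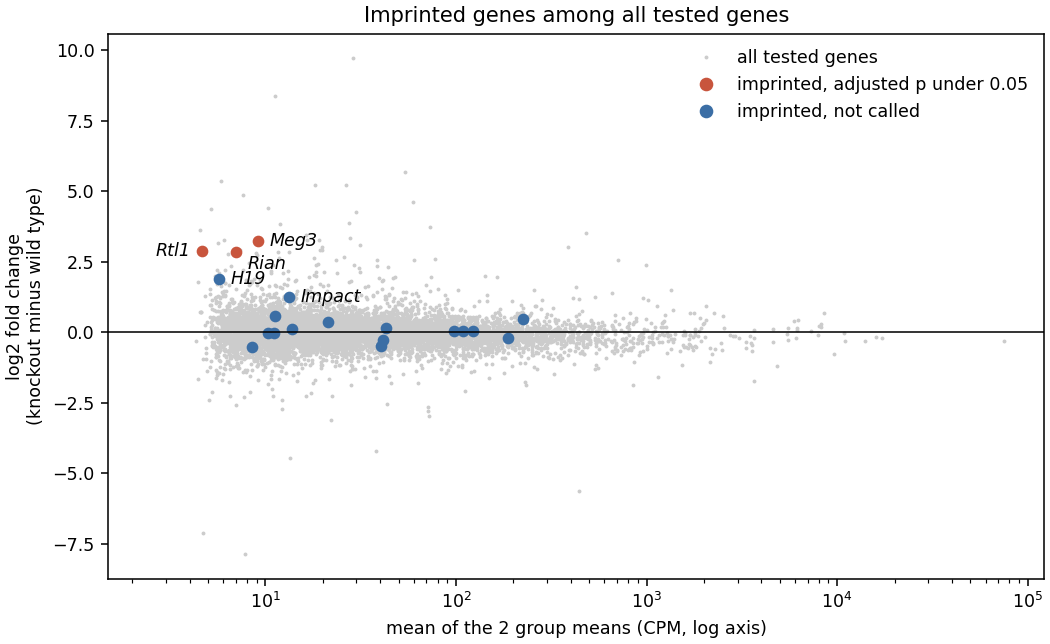
Log2 fold change (vertical axis, knockout minus wild type) against the mean level in CPM (horizontal log axis) of all 9180 tested genes (grey), with imprinted genes in red where called and blue where not. Meg3, Rian and Rtl1 lie at the low end of expression, and the imprinted genes above 30 CPM lie between -0.47 and 0.47.

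Levels were compared between genes per kilobase of exon, with exon lengths from GENCODE M21, which may differ from those the counts were made with. In wild type Cd81 was highest of the tested members at 33.1 ± 3.3 CPM per kb, followed by Slc22a18 at 23.9 ± 4.6, Gnas at 17.8 ± 2.8, Mest at 11.5 ± 1.0 and Igf2r at 11.4 ± 0.4 (SD, n = 3 each). Slc22a18 and Gnas lay within their spread of each other, as did Mest and Igf2r. Rtl1, Rian and Meg3 were lowest of the tested members, at 0.170 ± 0.218, 0.0975 ± 0.0582 and 0.0971 ± 0.0274 CPM per kb. No wild type library of these 3 passed the filter, so their low rank among tested members was in part set by it. In the knockout Rtl1, at 1.30 ± 0.33, Meg3, at 0.908 ± 0.411, and Rian, at 0.673 ± 0.313 CPM per kb, were in the range of Grb10 (1.46 ± 0.56) and Peg3 (0.521 ± 0.220).

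**Figure D5:**
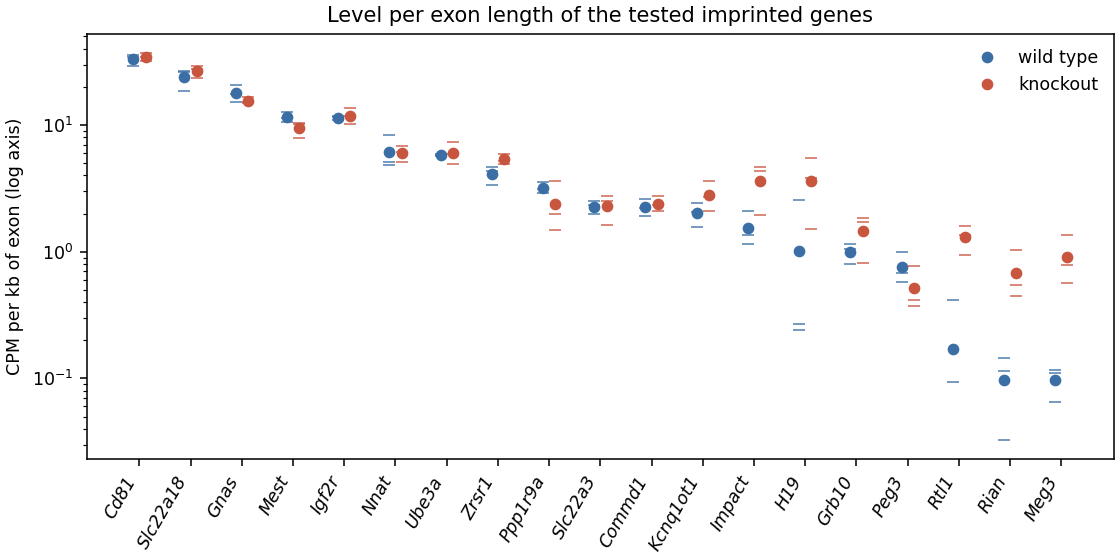
Mean level of the 19 tested imprinted genes in CPM per kilobase of exon (vertical log axis) in wild type (blue) and knockout (red), with a dash for each library, ordered by the wild type mean. The library WT1 of Rtl1 was at 0 and has no dash, and the 3 genes at the right, Rtl1, Rian and Meg3, have no overlap between the groups.

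Other imprinted genes, from a list of 64 outside the members, gave 1 call among 25 tested. This is near the share over all tested genes, 3.08% higher and 2.65% lower. Dcn, the gene of decorin, a matrix protein of stellate cells and fibroblasts that is imprinted in placenta, rose by 0.66 on the log2 scale, from 232 ± 7 to 366 ± 47 CPM (SE 0.15, edgeR adjusted p = 0.023). This call was lost without WT1, WT2, WT3, KO2 or KO3 (edgeR adjusted p up to 0.099). The median log2 fold change of the list was -0.03.

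Among 27 tested factors that set or keep imprints, Zfp445 was the only call. Over all tested genes 3.08% were called higher and 2.65% lower, so 1 call is near that share. It codes for a zinc finger protein that holds methylation at imprinting control regions together with ZFP57. Zfp445 had 157, 136 and 153 CPM in wild type and 317, 289 and 266 CPM in the knockout, with no overlap. The log2 fold change was 0.96 (SE 0.15, edgeR adjusted p = 0.0020), and it was called whichever library was left out (adjusted p up to 0.020).

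Other factors of the list did not pass the threshold or were too low to test. Trim28, the corepressor that ZFP57 recruits and a relative of Trim24, had 31.7 ± 3.3 and 34.2 ± 4.4 CPM, and the maintenance DNA methyltransferase gene Dnmt1 had 12.7 ± 1.5 and 14.6 ± 5.7 CPM (named after their values were seen, for their roles). Zfp57 itself had 0 counts in wild type and 4 in the knockout. The list's median log2 fold change was 0.03, and DNA methylation was not measured in these files.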

How the data were processed

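Liver RNA was isolated in TRIzol and sequenced as Illumina libraries, per the labels' protocols. The authors deposited raw read counts per gene symbol, 1 table per library. The build mm9 and the tools HTSeq, edgeR and TopHat 1.4.1 are in the submitters' processing notes, with no role given, and strandedness of the counting is not stated there. Reads in no gene (93.3% to 95.8%) and ambiguous reads (up to 0.0213%) were left out of library sizes.

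Counts were tested with edgeR 4.0.16 (R 4.3.3, quasi-likelihood F test, TMM factors, group as the only term) after filterByExpr with a minimum count of 10. Calls were made below 0.05 after Benjamini-Hochberg adjustment across the 9180 genes tested. Positive log2 fold changes mean a higher level in the knockout, and the SE was taken as the absolute change divided by F's square root. DESeq2 1.42.0, limma 3.58.1 (voom), other scalings, filters and thresholds, a replicate block and left-out libraries were alternatives, with the filter applied anew. The code was also run on simulated counts, with a common dispersion for all genes and changes set in genes that had passed the filter. No result given here rests on that run.

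Members and gene lists were chosen with earlier results of these data known. All 38 members are named, with values per library where called, changed by at least 1 (log2) or not overlapping. In other lists up to 4 called genes with the smallest adjusted p are named, or the 2 most abundant where none is called. Neighbours and overlapping genes, Airn and Zfp57 were named after their values were seen. Since the notes name mm9, annotation on GRCm38 (GENCODE M21, RefSeq) served for chromosomes, distances, exon lengths, overlaps and the printed sequences. Of the other marker lists, 0 of 4 tested cholangiocyte genes (Pkhd1 and Spp1 most abundant) and 0 of 1 neuron and glia gene (Syt1) were called, 2 of 15 hepatocyte genes were lower (Cyp2e1 and Tdo2), and 1 of 1 acinar gene was higher (Cela1). One result of the islet list is not reported here.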

Additional observations from a re-analysis of the deposited data

How the results depend on the processing

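Meg3, Rian and Rtl1 were higher in the knockout under all 18 alternatives. Since their groups did not overlap, leaving out libraries was bound to keep this direction, and the other thresholds reused the main fit. The number of imprinted genes called higher was 3 with all libraries, 5 with no filter on low counts (with H19 and Impact, of 34 tested), 1 with KO2 as the only knockout library (Impact), and 1 to 5 with single libraries left out. The number called lower was 0 and went to 1 (Ppp1r9a) without KO1, so the range was 0 to 1. The median log2 fold change of the tested members, 0.10, was 0.42 with no filter, 0.33 with at least 1 CPM in 3 libraries, 0.32 with KO2 alone, and 0.038 to 0.21 with single libraries left out. The sets of tested members differed between these fits. Cela1 of the acinar list went from 1.78 to -0.12 with KO2 alone. Without scaling factors 68.4% of all calls were higher, against 53.8% with TMM, and the median of all genes was 0.099. Of all genes, 283 were called higher and 243 lower, against 576 and 509 with no filter. The counts were 118 and 67 at a threshold of 0.01, and 445 and 437 at 0.1. They were 175 and 143 without WT1, 171 and 103 without WT2, and 127 and 95 without WT3. Without KO1 they were 409 and 363, without KO2 191 and 107, and without KO3 203 and 173. Of the single libraries, only KO1 raised both counts when left out. Rtl1 was not called at a threshold of 0.01. Replicate numbers did not pair the libraries (correlations of deviations -0.07, 0.08 and 0.03), and with the replicate block 4 members were called higher (with Impact, adjusted p = 0.047) and 0 lower, with a median of 0.11. Members with a few counts were left out by the filter, and none of the 15 with reads was called with no filter or, where tested, with at least 1 CPM in 3 libraries.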
